A study of Rattus norvegicus with 9 samples.

Results

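The Slc25 genes encode the mitochondrial carriers, the proteins that move metabolites across the inner mitochondrial membrane. They were described here in regenerating rat liver whose hepatocytes had been blocked with retrorsine. Members were the genes whose platform symbol is Slc25a followed by a number, except Slc25a13, Slc25a15 and Slc25a20, and for each gene the probe set with the highest 9-array mean was used. This gave 41 carriers of 18166 genes with a probe set of 1 symbol. The rule used no difference between groups. Slc25a5 and Slc25a6 are given no value, because their 2 probe sets are annotated to both genes. Of the 41 carriers, 38 were bright enough to be tested. Slc25a31, an adenine nucleotide carrier known from testis, Slc25a54 and Slc25a19l1 were too dim, each above its array's 25th percentile on fewer than 3 of the 9 arrays.

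The arrays measured RNA of laser-microdissected cells from female F344 rats, of which those that received donor cells are labelled DPPIV-. Per the labels, every group shared the same liver treatment. The rats received retrorsine (30 mg/kg) in 2 doses separated by 2 weeks, and part of the liver was removed 4 weeks later. Retrorsine blocks division of most hepatocytes, and small hepatocyte-like progenitor cells (SHPCs) then form clusters that regrow the liver. Hepatocytes beside such clusters and SHPC clusters were taken from livers without transplantation, and further SHPC clusters from livers given sorted DPPIV+ donor cells carrying the surface protein Thy1 through the spleen, with 3 arrays per group. The sources used here do not give the age of the rats, the time of collection, the source of the donor cells or the number of animals. For the hepatocyte arrays a description label speaks of SHPCs and transplantation, while their titles call them controls and their cell type label calls them hepatocytes beside clusters, and the cell type label was followed. No label ties an array to an animal, so every p-value below is too small if regions of a group share an animal, and the spread it measures may be technical. The clusters hold several cell types, and fewer cells of a type cannot be told apart from less RNA per cell.

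Mitochondrial carriers share a fold of 3 repeats, each with a pair of membrane-spanning helices, and most exchange one solute for another. In hepatocytes they link cytosolic and mitochondrial steps of shared pathways: ATP leaves against ADP, phosphate enters for ATP synthesis, citrate leaves for fatty acid synthesis, and malate, oxoglutarate, aspartate and glutamate cycle to carry reducing equivalents. Other carriers bring in cofactors such as coenzyme A, folate, NAD and S-adenosylmethionine, or iron for heme. A few relatives of the uncoupling proteins have less settled substrates.

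Array 2 of the SHPCs and array 2 of the hepatocytes stood apart from the rest. Their median intensities over all 36685 probe sets were 24.1 and 23.0, against 19.6 to 20.6 on the other 7 arrays, and their log2 values spread less, with SDs of 1.94 and 1.98 against 2.09 to 2.13. Main results are therefore also given on 7 arrays, without these 2. Markers of hepatocytes, among them Alb and Cps1, were bright in every group: the summed intensity of the 6 measured marker genes was 30000 to 32200 on the hepatocyte arrays, 30100 to 34300 on the SHPC arrays and 35000 to 36000 on the SHPC arrays of transplanted livers.

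Few of the carriers passed the test. The comparison of SHPCs of transplanted livers with hepatocytes differs in both cell kind and transplantation, since hepatocytes came only from livers without transplantation. The part of each cannot be told apart. In this comparison 1 carrier rose and 1 fell among 38 tested. Slc25a23, a calcium-regulated carrier that exchanges ATP-Mg for phosphate, was 2.64-fold higher, and Slc25a30, a relative of the uncoupling proteins, was 2.16-fold lower. These 2 are 5.26% of the tested carriers, beside 1.18% of all 15793 tested genes, of which 0.861% rose and 0.317% fell (limma, Benjamini-Hochberg adjusted p under 0.05 over all tested genes). At an unadjusted p under 0.05, 6 carriers passed, which is 15.8% of them beside 10.4% of all genes. The median log2 difference was 0.08 over the carriers and 0.00 over all tested genes, with 22 carriers higher and 16 lower. Without array 2 of both groups, 4 carriers passed beside 3.64% of all genes: Slc25a4 and Slc25a10 then also rose, the median became 0.00, and 19 carriers were higher and 19 lower. When each array was centred on its own median instead, no carrier passed and 27 were higher and 11 lower, with a median of 0.17 against 0.09 over all genes. The count of 2 became 0 without array 1 or 3 of the transplanted group or without any 1 of the hepatocyte arrays, 1 without array 2 of the transplanted group or array 3 of the SHPCs, and 3 without array 2 of the SHPCs.

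Presence of Thy1+ cells is the contrast named in the study's title. Between SHPCs of transplanted livers and SHPCs of livers without transplantation, no carrier passed (limma, 0 of 38, beside 0.00633% of all tested genes, which is 1 gene). At an unadjusted p under 0.05, 6 carriers passed, 15.8% of them beside 7.35% of all genes. Among them was Slc25a52, which was dim in SHPCs. The 2 smallest p-values were again those of Slc25a23, higher by 1.22 ± 0.22 on the log2 scale (SE, adjusted p = 0.162), and Slc25a30, 2.00-fold lower (SE 0.21 on the log2 scale, adjusted p = 0.198). On 7 arrays Slc25a23 passed (0.94, adjusted p = 0.0497), as 0.146% of all genes did. The median of the carriers was 0.01 and that of all genes 0.02, with 20 carriers higher and 18 lower. Centring on array medians gave 0.11 for the carriers, 0.12 for all genes, and 27 higher against 11 lower. The comparison shares its transplanted arrays with the one against hepatocytes, so the same genes can lead both through those 3 arrays.

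Between SHPCs and hepatocytes of livers without transplantation, no carrier passed either (limma, 0 of 38, beside 0.0633% of all tested genes). At an unadjusted p under 0.05 there were 3 carriers, 7.89% of them beside 4.12% of all genes, and the dim Slc25a52 was again among them. The median of the carriers was 0.00, that of all genes -0.01, and 19 carriers were higher and 19 lower. Same-numbered arrays of these 2 groups deviated together, but the shift of array 2 in both groups can produce this. Pairing of the arrays is therefore not shown. With the array number as a block the count over all genes went from 10 to 35, and that of carriers stayed at 0. On 7 arrays the carriers' count was also 0, beside 0.304% of all genes.

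**Figure D1:**
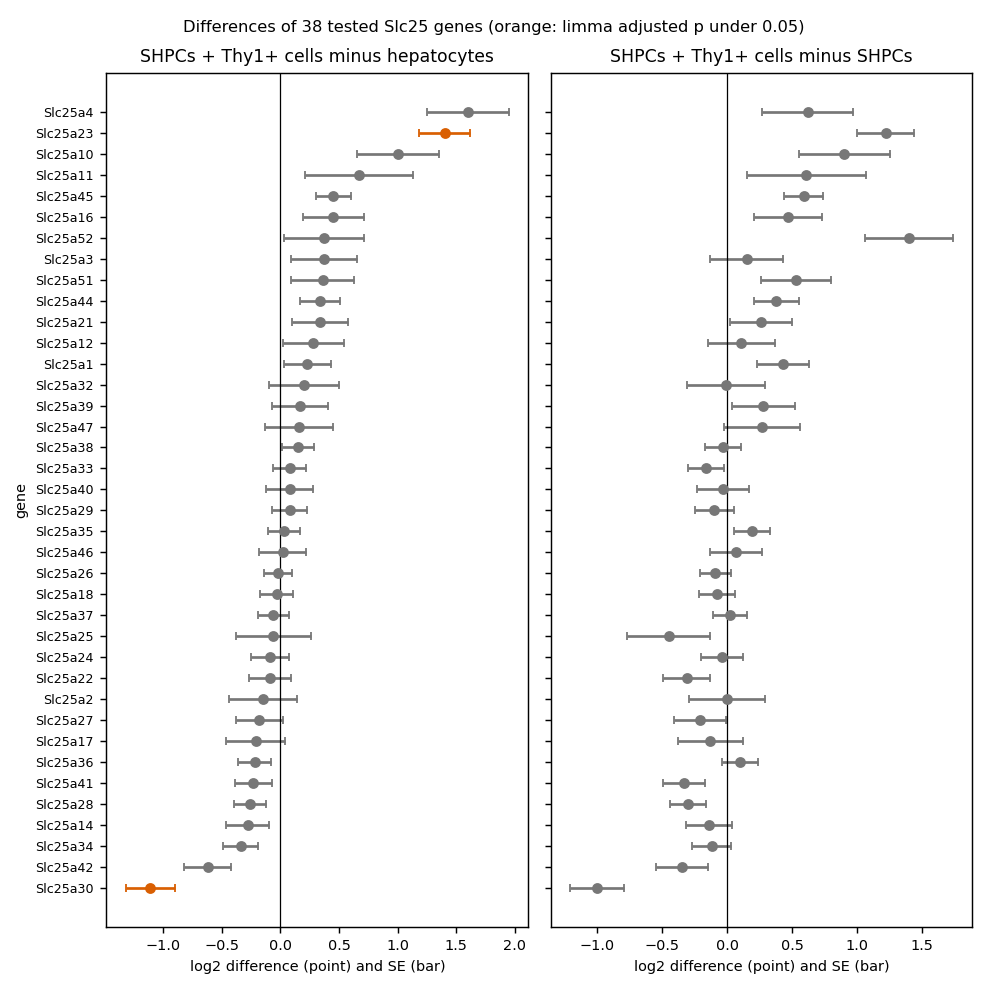
Log2 difference (horizontal axis, point) with limma's SE (bar) for the 38 tested Slc25 genes (vertical axis), for SHPCs of transplanted livers against hepatocytes (left) and against SHPCs without transplantation (right). Orange marks an adjusted p under 0.05: Slc25a23 at 1.40 and Slc25a30 at -1.11 on the left, and no gene on the right.

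For some carriers the arrays of 2 groups did not overlap. The 3 arrays of transplanted livers lay above all hepatocyte arrays for 7 carriers (Slc25a4, Slc25a10, Slc25a11, Slc25a16, Slc25a23, Slc25a45 and Slc25a51) and below them for Slc25a30 and Slc25a42. These 9 are 23.7% of the tested carriers, beside 19.2% of all tested genes (12.6% above and 6.64% below). Against SHPCs without transplantation, 6 carriers lay above (Slc25a10, Slc25a16, Slc25a23, Slc25a44, Slc25a45 and Slc25a52) and 4 below (Slc25a28, Slc25a30, Slc25a33 and Slc25a41), 26.3% of the carriers beside 15.8% of all genes (10.6% above and 5.23% below). Of these, Slc25a52 was dim, with an SHPC mean of 2.60 that lies under the 25th percentile of the arrays. Between SHPCs and hepatocytes, Slc25a33 alone did not overlap, 2.63% of the carriers beside 5.22% of all genes.

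**Figure D2:**
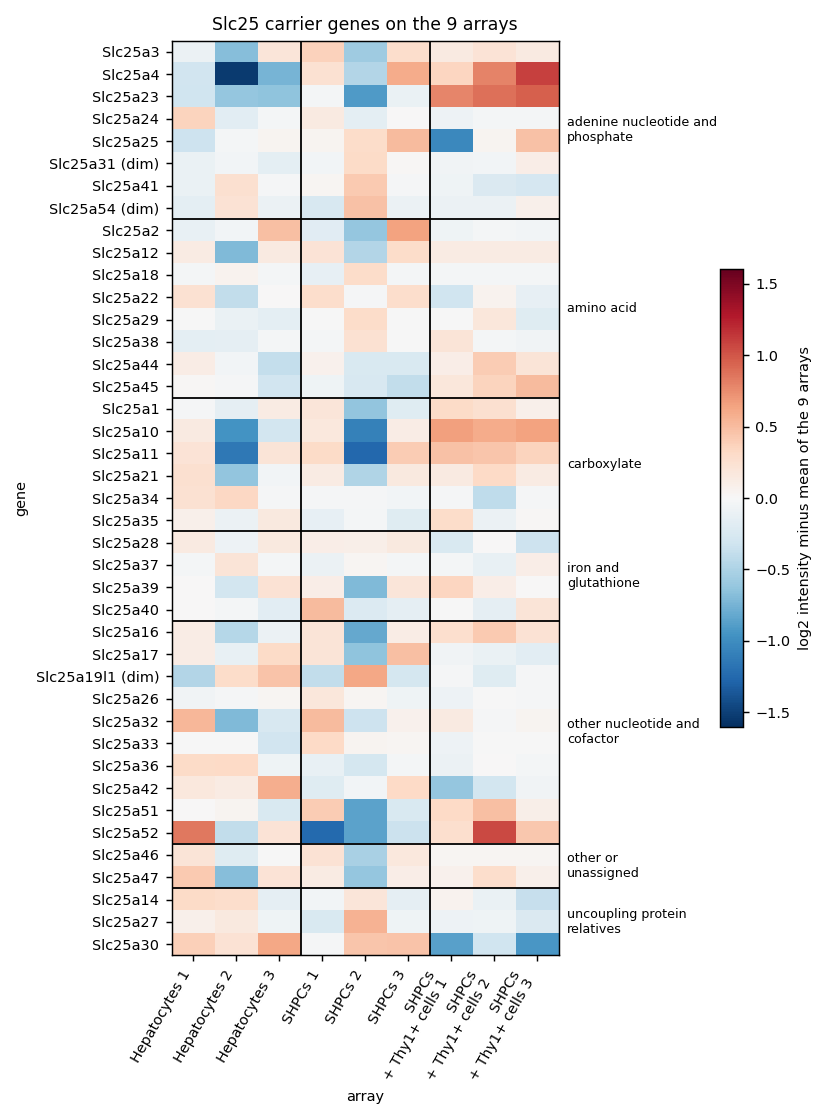
Log2 intensity minus the gene's mean over the 9 arrays (colour) for all 41 Slc25 genes (vertical axis, grouped by role) on each array (horizontal axis). Slc25a23 and Slc25a10 are red on all 3 arrays of transplanted livers and Slc25a30 is blue there, while array 2 of hepatocytes and of SHPCs is blue for Slc25a11, Slc25a10 and Slc25a47.

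The adenine nucleotide and phosphate carriers supply ADP and phosphate to ATP synthase and set the size of the mitochondrial nucleotide pool. Of 8 members 6 were tested: 3 were higher and 3 lower in SHPCs of transplanted livers than in hepatocytes, and Slc25a23 passed. Slc25a23 (probe set 17867717) read 6.33, 6.04 and 6.01 on the hepatocyte arrays, 6.62, 5.75 and 6.55 on the SHPC arrays, and 7.43, 7.54 and 7.61 on the SHPC arrays of transplanted livers, all as log2 intensity. The transplanted arrays lay close together and above all 6 others, which overlapped each other. The log2 difference from hepatocytes was 1.40 ± 0.22 (SE, n = 3 arrays per group, limma adjusted p = 0.0206), and 1.36 on 7 arrays (adjusted p = 0.00231). SHPCs and hepatocytes without transplantation differed by 0.18, within a spread that includes SHPC array 2 at 5.75. SHPC arrays 1 and 3 lay above all hepatocyte arrays. On 7 arrays these SHPCs were higher than hepatocytes by 0.42 ± 0.13 (SE, limma adjusted p = 0.384). That comparison passed in 0 of 22 alternatives, with a lowest adjusted p of 0.0517. The difference of transplanted SHPCs from hepatocytes passed in 13 of 21 alternatives, with adjusted p from 1.81e-05 to 0.118. Over these alternatives the difference was 1.29 to 1.50. It did not pass after median centring (0.0705), with all probe sets tested (0.0789), or with any 1 of the compared arrays left out: without transplanted arrays 1, 2 and 3 in turn the adjusted p was 0.0995, 0.0992 and 0.118, and without hepatocyte arrays 1, 2 and 3 it was 0.0573, 0.0787 and 0.0911. The difference from SHPCs passed in 4 of 21: cyclic loess (0.0165), array weights (0.00298), the array number as a fixed block (0.0393) and 7 arrays (0.0497).

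Slc25a24 and Slc25a25 are the close relatives of Slc25a23 with the same calcium-binding arrangement. Slc25a25 read 7.50, 7.80 and 7.88 in hepatocytes, 7.88, 8.13 and 8.34 in SHPCs, and 6.81, 7.88 and 8.31 in SHPCs of transplanted livers, where its SD of 0.77 was the widest of any carrier. Transplanted array 1 lay below all others and array 3 near the top, so the groups overlapped. Slc25a24 was nearly level, with means of 4.93 ± 0.27, 4.87 ± 0.15 and 4.84 ± 0.03 (SD, n = 3 each). Slc25a41, a shorter ATP-Mg/phosphate carrier and the gene next to Slc25a23 in the RefSeq table, had means of 4.52 ± 0.19, 4.62 ± 0.24 and 4.29 ± 0.11. Its transplanted arrays lay below the SHPC arrays, in the opposite direction to its neighbour, but the difference did not pass the test.

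Slc25a4 encodes the adenine nucleotide translocase known from heart and muscle. Its probe set 17707924 read 6.32, 5.10 and 5.89 in hepatocytes, 6.87, 6.16 and 7.23 in SHPCs, and 6.98, 7.42 and 7.72 in SHPCs of transplanted livers. The transplanted arrays lay above the hepatocytes, and the SHPC arrays lay between and overlapped both. Its difference of 1.60 ± 0.35 (3.04-fold, 95% interval 0.82 to 2.39) from hepatocytes had the largest size of any carrier but an adjusted p of 0.0732. It passed in 7 of 21 alternatives, among them 7 arrays (1.27, adjusted p = 0.0291) and the omission of SHPC array 2 alone (1.60, 0.0245). SHPCs exceeded hepatocytes by 0.98 ± 0.35 (adjusted p = 0.909), and with the array number as a block in those 2 groups alone the adjusted p was 0.0695. This difference passed in 1 of 22 alternatives, the one with array weights (limma adjusted p = 0.0205). The array holds a second probe set for the gene, 17711739, and the 2 disagreed: it read 4.60, 5.01 and 5.00, then 5.00, 5.42 and 5.39, then 5.06, 4.97 and 5.00 over the same groups. On it transplanted SHPCs differed from hepatocytes by 0.14 and from SHPCs by -0.26, where the first probe set gave 1.60 and 0.62. With the mean of both probe sets the difference from hepatocytes was 0.87 (adjusted p = 0.0569).

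The phosphate carrier Slc25a3 read 8.40, 7.81 and 8.69 in hepatocytes, 8.86, 7.93 and 8.78 in SHPCs, and 8.64, 8.72 and 8.64 in SHPCs of transplanted livers. Only array 2 of each untransplanted group lay clearly lower, and the other 7 arrays lay within 8.40 and 8.86.

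**Figure D3:**
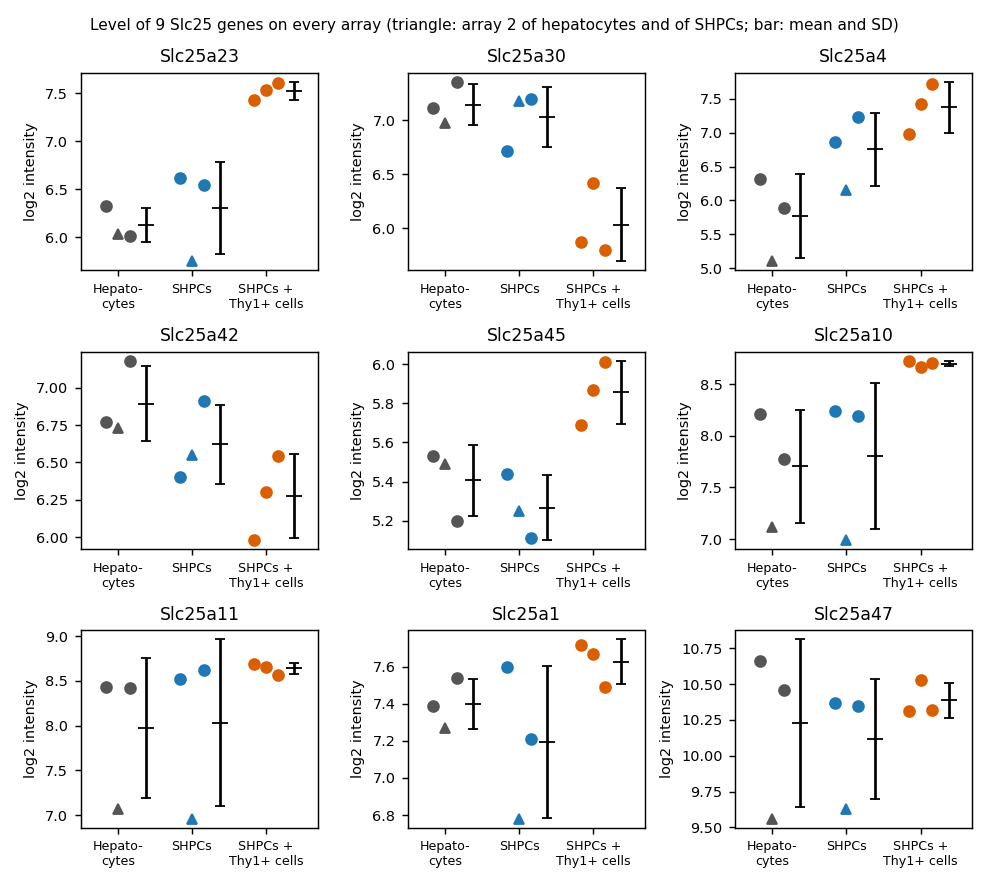
Log2 intensity (vertical axis) of 9 Slc25 genes on every array of each group (horizontal axis), with the mean and SD of the 3 arrays as a bar and array 2 of hepatocytes and of SHPCs as a triangle. The transplanted arrays of Slc25a23 lie between 7.43 and 7.61, above all others, those of Slc25a30 between 5.80 and 6.42, below all others, and the triangles of Slc25a10, Slc25a11 and Slc25a47 lie far under their groups.

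The 250 bases before the start of Slc25a23, the carrier that rose, and of Slc25a4, the carrier with the largest difference, which did not pass on 9 arrays, were taken from RefSeq (GRCr8) and run 5′ to 3′ on the strand of the gene, with CG dinucleotides in capitals. Slc25a30, the carrier that fell, has no entry in this table. The stretches lie at chr9:1985366-1985615 on the minus strand and chr16:52805271-52805520 on the plus strand.
Slc25a23: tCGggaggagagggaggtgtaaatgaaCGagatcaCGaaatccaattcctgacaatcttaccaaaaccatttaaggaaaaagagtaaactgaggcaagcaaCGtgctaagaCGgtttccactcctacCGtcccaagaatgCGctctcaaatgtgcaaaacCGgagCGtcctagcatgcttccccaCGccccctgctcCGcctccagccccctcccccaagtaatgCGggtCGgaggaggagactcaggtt
Slc25a4: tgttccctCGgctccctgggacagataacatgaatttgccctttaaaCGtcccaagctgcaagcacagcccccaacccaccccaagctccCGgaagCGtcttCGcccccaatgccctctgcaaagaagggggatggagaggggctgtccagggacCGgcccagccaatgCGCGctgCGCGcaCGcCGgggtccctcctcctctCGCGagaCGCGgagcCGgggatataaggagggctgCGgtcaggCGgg
The Slc25a23 stretch held 13 CG dinucleotides and 53.2% G or C, and 61.0% of 21851 protein-coding promoters of that length held fewer CG. That of Slc25a4 held 19 CG and 65.6% G or C, and 75.8% of promoters held fewer. The 34 carriers with an entry in the table had medians of 13 CG and 58.2% G or C, beside 8 and 54.0% over all protein-coding promoters. On either strand, CACGTG occurred before 4 of these carriers (Slc25a2, Slc25a31, Slc25a33 and Slc25a51) and in 6.16% of all promoters. The NRF1 motif occurred before 0 of 34 and in 5.07% of promoters, and TCACNCCAC, a sterol regulatory element, before 0 of 34 and in 0.897%. GGGCGG, a GC box added after the values had been seen, occurred before 20 of the 34 (58.8%) and in 38.9% of all promoters, but before neither Slc25a23 nor Slc25a4. These matches describe letters in a short window and say nothing of binding.

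Of the carriers of carboxylates, which move citrate, malate, oxoglutarate and their relatives, 5 of 6 were higher and 1 lower in SHPCs of transplanted livers than in hepatocytes, with a median of 0.28, and 0 passed. On 7 arrays 4 were higher and 2 lower, with a median of 0.13, and Slc25a10 passed. Against SHPCs 5 were higher, with a median of 0.35 on 9 arrays and 0.15 on 7, and 0 passed on either. Slc25a10, the dicarboxylate carrier that exchanges malate or succinate for phosphate, read 8.21, 7.12 and 7.78 in hepatocytes, 8.24, 6.99 and 8.19 in SHPCs, and 8.72, 8.67 and 8.71 in SHPCs of transplanted livers. The transplanted arrays lay above all 6 others and within 0.05 of each other, whereas array 2 was far the lowest in both other groups. Its difference from hepatocytes was 1.00 ± 0.35 (2.00-fold, adjusted p = 0.314) on 9 arrays and 0.71 (adjusted p = 0.0319) on 7. Against SHPCs it was 0.90 ± 0.35 (adjusted p = 0.634) and, on 7 arrays, 0.49 (0.245).

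Slc25a11, the oxoglutarate carrier of the malate-aspartate shuttle, read 8.43, 7.07 and 8.42 in hepatocytes, 8.52, 6.96 and 8.62 in SHPCs, and 8.69, 8.66 and 8.57 in SHPCs of transplanted livers. With array 2 of both groups set aside, the other 7 arrays lay within 8.42 and 8.69. Slc25a1, the citrate carrier, read 7.39, 7.27 and 7.54 in hepatocytes, 7.60, 6.78 and 7.21 in SHPCs, and 7.72, 7.67 and 7.49 in SHPCs of transplanted livers. Its groups overlapped, and its largest difference, 0.43 ± 0.20 between the SHPC groups, did not pass (95% interval -0.01 to 0.87, adjusted p = 0.691). Slc25a21, which carries oxoadipate of lysine breakdown, had means of 5.23 ± 0.45, 5.31 ± 0.36 and 5.57 ± 0.11 (SD). Slc25a34 was the one member lower in transplanted SHPCs than in hepatocytes, at -0.34 ± 0.15 (adjusted p = 0.488). It read 5.72, 5.81 and 5.46 in hepatocytes, 5.46, 5.46 and 5.44 in SHPCs, and 5.46, 5.07 and 5.46 in the transplanted group. Slc25a35 had means of 4.23 ± 0.13, 4.07 ± 0.09 and 4.26 ± 0.20.

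The amino acid carriers were all 8 tested: 5 were higher and 3 lower in SHPCs of transplanted livers than in hepatocytes, with a median of 0.12, and 0 passed. Slc25a45 came nearest, with 5.53, 5.49 and 5.20 in hepatocytes, 5.44, 5.25 and 5.11 in SHPCs, and 5.69, 5.87 and 6.01 in SHPCs of transplanted livers. Its transplanted arrays lay above all others, with differences of 0.45 ± 0.15 from hepatocytes (adjusted p = 0.293) and 0.59 ± 0.15 from SHPCs (adjusted p = 0.355). Slc25a44, a carrier of branched-chain amino acids, read 6.51, 6.34 and 6.01, then 6.46, 6.15 and 6.14, then 6.50, 6.79 and 6.59 over hepatocytes, SHPCs and transplanted SHPCs. It exceeded all SHPC arrays and overlapped the hepatocytes, at 0.34 ± 0.17 from hepatocytes (adjusted p = 0.531) and 0.38 ± 0.17 from SHPCs (adjusted p = 0.679).

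Slc25a12, an aspartate/glutamate carrier of the malate-aspartate shuttle, read 6.18, 5.34 and 6.20 in hepatocytes, 6.27, 5.58 and 6.35 in SHPCs, and 6.18 on each transplanted array. The equal values are as deposited and were shared by Slc25a18 and Slc25a46 in the transplanted group. Apart from array 2 of both other groups, all its values lay within 6.18 and 6.35. Slc25a22, a glutamate carrier, read 9.03, 8.40 and 8.80 in hepatocytes, 9.07, 8.77 and 9.07 in SHPCs, and 8.47, 8.84 and 8.66 in SHPCs of transplanted livers, with overlap among all groups. The second glutamate carrier Slc25a18 had means of 4.78, 4.83 and 4.75.

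Slc25a38, a glycine carrier needed for heme synthesis in red cell precursors, read 6.31, 6.33 and 6.44 in hepatocytes, 6.44, 6.71 and 6.47 in SHPCs, and 6.68, 6.44 and 6.41 in transplanted SHPCs. SHPCs lay 0.18 ± 0.14 above hepatocytes (adjusted p = 1). Slc25a29, a carrier of basic amino acids, read 5.11, 5.01 and 4.95, then 5.11, 5.41 and 5.10, then 5.11, 5.29 and 4.92, and SHPCs lay 0.19 ± 0.15 above hepatocytes (adjusted p = 1). Slc25a2, an ornithine carrier, was above its array's 25th percentile on 8 of 9 arrays, with means of 3.80 ± 0.33, 3.64 ± 0.65 and 3.65 ± 0.02.

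Of the 10 carriers of other nucleotides and cofactors 9 were tested: 5 were higher and 4 lower in transplanted SHPCs than in hepatocytes, with a median of 0.08, and 0 passed. Slc25a42, which brings coenzyme A into mitochondria, read 6.77, 6.73 and 7.18 in hepatocytes, 6.40, 6.55 and 6.91 in SHPCs, and 5.98, 6.30 and 6.54 in SHPCs of transplanted livers. The transplanted arrays lay below all hepatocyte arrays, and the SHPC arrays overlapped both. It differed from hepatocytes by -0.62 ± 0.20 (adjusted p = 0.264) in the transplanted group and by -0.27 ± 0.20 (adjusted p = 1) in the SHPCs. Slc25a33 and Slc25a36, a pair of pyrimidine nucleotide carriers, differed between SHPCs and hepatocytes in opposite directions without passing. Slc25a33 read 5.37, 5.37 and 5.07 in hepatocytes, 5.70, 5.42 and 5.41 in SHPCs, and 5.30, 5.37 and 5.37 in transplanted SHPCs, so that its SHPC arrays lay just above all others (0.24 ± 0.14 against hepatocytes, adjusted p = 1). Slc25a36 read 4.50, 4.51 and 4.13, then 4.08, 3.91 and 4.17, then 4.10, 4.20 and 4.17, with SHPCs at -0.32 ± 0.14 from hepatocytes (adjusted p = 1).

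Slc25a51 and Slc25a52 are near-identical carriers of NAD, so signal could be shared between their probes and both are uncertain. Slc25a51 read 5.52, 5.55 and 5.27 in hepatocytes, 5.92, 4.65 and 5.27 in SHPCs, and 5.83, 5.99 and 5.60 in transplanted SHPCs. Slc25a52 was dim, above its array's 25th percentile on 6 of 9 arrays, and read 4.25, 3.02 and 3.63, then 2.17, 2.55 and 3.06, then 3.68, 4.47 and 3.84. Its transplanted arrays lay above the SHPC arrays by 1.40 ± 0.34 (adjusted p = 0.301) and its SHPC arrays lay 1.03 ± 0.34 under the hepatocytes (a log2 difference of -1.03, adjusted p = 0.768), where the groups overlapped. Both differences rest on a level in SHPCs, a mean of 2.60, that lies under the 25th percentile of the arrays, 2.85 to 3.14.

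Slc25a16 had means of 6.82 ± 0.30, 6.80 ± 0.56 and 7.27 ± 0.10 in hepatocytes, SHPCs and transplanted SHPCs, and its transplanted arrays lay above all others. Slc25a32, the folate carrier, had means of 6.85 ± 0.63, 7.06 ± 0.42 and 7.05 ± 0.08. Slc25a17, a carrier of the peroxisomal membrane, had 6.71 ± 0.21, 6.63 ± 0.59 and 6.50 ± 0.05, and Slc25a26, the S-adenosylmethionine carrier, had 5.46 ± 0.04, 5.53 ± 0.13 and 5.44 ± 0.05. None of the last 3 separated the groups on 9 arrays. On 7 arrays the transplanted values of Slc25a17 lay below all others without passing. The differences were -0.32 from hepatocytes (limma adjusted p = 0.223) and -0.46 from SHPCs (adjusted p = 0.223).

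Among the iron and glutathione carriers, 2 of 4 were higher and 2 lower in transplanted SHPCs than in hepatocytes, and 0 passed. Slc25a28 and Slc25a37 are mitoferrins, which import iron for heme and iron-sulfur clusters. Slc25a28 read 6.15, 5.93 and 6.16 in hepatocytes, 6.11, 6.10 and 6.16 in SHPCs, and 5.77, 6.02 and 5.68 in transplanted SHPCs, where it lay below all SHPC arrays (-0.30 ± 0.14, adjusted p = 0.683). Slc25a37, the mitoferrin known from red cell precursors, was level at 5.04 ± 0.14, 4.96 ± 0.06 and 4.98 ± 0.11. Slc25a39 and Slc25a40, which carry glutathione, had means of 7.34 ± 0.27, 7.23 ± 0.50 and 7.51 ± 0.17, and of 4.85 ± 0.09, 4.96 ± 0.40 and 4.93 ± 0.17.

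With all arrays, the 3 relatives of the uncoupling proteins were lower in SHPCs of transplanted livers than in either other group. Only Slc25a30 passed, against hepatocytes. On 7 arrays all 3 stayed lower than in hepatocytes. Against SHPCs without transplantation 1 was then higher and 2 were lower, with a median of -0.04. Those differences were 0.03 for Slc25a27, -0.04 for Slc25a14 and -0.92 for Slc25a30. Slc25a30 (probe set 17704616) read 7.11, 6.97 and 7.35 in hepatocytes, 6.71, 7.18 and 7.19 in SHPCs, and 5.87, 6.42 and 5.80 in SHPCs of transplanted livers. Its transplanted arrays lay below all 6 others, which overlapped. The log2 difference from hepatocytes was -1.11 ± 0.21 (2.16-fold lower, adjusted p = 0.0368), and -1.20 on 7 arrays (adjusted p = 0.0285). SHPCs and hepatocytes without transplantation differed by -0.11, within their spread. It passed in 13 of 21 alternatives, with adjusted p from 0.000776 to 0.195, and its level was lower than in hepatocytes in all 21. It did not pass after median centring (0.107), with all probe sets tested (0.119), without SHPC array 3 (0.0564), without transplanted arrays 1 or 3 (0.195 and 0.191), or without hepatocyte arrays 1, 2 or 3 (0.0987, 0.0844 and 0.154). Against SHPCs it passed with array weights only (adjusted p = 0.031). Slc25a14 read 4.62, 4.60 and 4.17, then 4.27, 4.51 and 4.17, then 4.38, 4.21 and 3.95, and Slc25a27 had means of 4.73 ± 0.11, 4.75 ± 0.42 and 4.54 ± 0.09. Neither separated the groups. The uncoupling proteins proper, Ucp1, Ucp2 and Ucp3, did not pass: Ucp3 differed by -0.21 ± 0.21 (adjusted p = 0.773) and Ucp1 by -0.04 ± 0.13 (adjusted p = 0.942) between transplanted SHPCs and hepatocytes.

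Slc25a47, a carrier known mainly from liver, read 10.66, 9.56 and 10.46 in hepatocytes, 10.37, 9.63 and 10.35 in SHPCs, and 10.31, 10.53 and 10.32 in transplanted SHPCs. Array 2 was the lowest in both untransplanted groups, and the other arrays overlapped. Slc25a46, a protein of the outer membrane linked to mitochondrial shape, had means of 6.72, 6.68 and 6.75.

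Much of the spread of the brighter carriers within a group came with array 2. Array 2 was the lowest of its group in both hepatocytes and SHPCs for 16 of 38 carriers, 42.1% of them beside 32.7% of all tested genes. Of 20 tested carriers with a mean log2 intensity above 6, 14 were lowest on array 2 in both hepatocytes and SHPCs, and the same held for 69.7% of all tested genes of that level. Their median drop from the mean of arrays 1 and 3 was -0.72 in SHPCs and -0.38 in hepatocytes, beside -0.54 and -0.35 over all such genes. Of the 18 dimmer carriers 2 were lowest on both, beside 13.6% of all dimmer genes. The drops of Slc25a11 were -1.60 and -1.35, and those of Slc25a10 were -1.22 and -0.88. For Slc25a30 array 2 was not the lowest of the SHPCs, and its shift was 0.23 there and -0.26 in hepatocytes. Without these 2 arrays the difference between transplanted SHPCs and hepatocytes was 1.27 instead of 1.60 for Slc25a4 and 0.71 instead of 1.00 for Slc25a10.

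**Figure D4:**
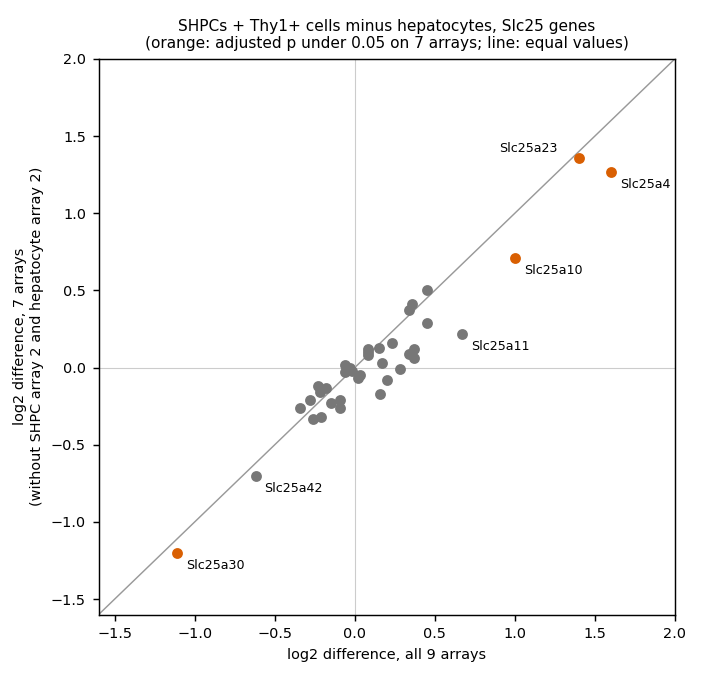
Log2 difference of SHPCs of transplanted livers from hepatocytes for the 38 tested Slc25 genes on all 9 arrays (horizontal axis) and on 7 arrays, without array 2 of SHPCs and of hepatocytes (vertical axis). Slc25a23 stays near the line of equal values at 1.40 and 1.36, Slc25a4 and Slc25a10 lie under it, and orange marks the 4 genes with an adjusted p under 0.05 on 7 arrays.

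Genes of the carriers' routes were read from lists chosen for those routes, and some genes, such as Mdh1, are in 2 lists. Of 10 measured genes in the list of cytosolic citrate use and lipid synthesis, 8 were higher in transplanted SHPCs than in hepatocytes, with a median of 1.61, and 2 passed. Among all tested genes 1.18% passed. The list also holds genes that do not use citrate themselves, among them Srebf1, Elovl6 and Scd. Srebf1, the transcription factor of fatty acid synthesis, read 5.77, 5.73 and 5.63 in hepatocytes, 7.24, 6.11 and 5.76 in SHPCs, and 8.57, 8.16 and 8.02 in transplanted SHPCs (2.54 ± 0.32, adjusted p = 0.00748). Its call was lost without transplanted array 1 (adjusted p = 0.0546). Acacb, the acetyl-CoA carboxylase of the outer membrane, was higher by 1.65 ± 0.25 (adjusted p = 0.0205). When any 1 of the 6 arrays compared was left out it did not pass, with adjusted p from 0.0573 to 0.111. The citrate carrier Slc25a1, which feeds this route, differed by 0.23 ± 0.20 in the same comparison (adjusted p = 0.733). On 7 arrays 6 genes of the list passed, beside 3.64% of all tested genes. Srebf1 (2.55, adjusted p = 0.0139), Acacb (1.51, 0.00271), the other acetyl-CoA carboxylase Acaca (1.32, 0.0239), the elongase Elovl6 (2.53, 0.0204) and the desaturase Scd (1.69, 0.0312) were higher, and the cytosolic aconitase Aco1 was lower (-0.84, 0.012). Against SHPCs the median of these genes was 1.56 and 0 passed, while on 7 arrays Acacb passed (1.24, adjusted p = 0.0265), as 0.146% of all genes did.

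The 6 measured enzymes of the malate-aspartate and glycerophosphate shuttles were higher in 5 cases in transplanted SHPCs than in hepatocytes, with a median of 0.60, and 2 passed. Got1, the cytosolic aspartate aminotransferase, read 9.65, 9.37 and 9.44 in hepatocytes, 10.35, 9.97 and 10.19 in SHPCs, and 10.75, 10.59 and 10.92 in transplanted SHPCs. The 3 groups did not overlap, and the difference of 1.27 ± 0.15 passed in the main test (adjusted p = 0.00585) and in 21 of 21 alternatives. Got2, its mitochondrial counterpart, rose by 0.72 ± 0.14 (adjusted p = 0.0414), and passed in 7 of 21 alternatives. With any 1 array other than SHPC array 2 left out, its adjusted p was 0.0644 to 0.219. Among the members, the carriers of the same shuttle, Slc25a11 and Slc25a12, did not pass. Slc25a13 was left out by the rule, so the shuttle's carriers are not fully covered here. Of 10 genes of branched-chain amino acid breakdown, the route behind Slc25a44, 9 were higher with a median of 0.80 and 0 passed, with Dbt at 1.68 ± 0.45 (adjusted p = 0.156) and Mccc1 at 0.76 ± 0.19 (adjusted p = 0.126). On 7 arrays all 10 were higher and 4 passed: Dbt (1.32, adjusted p = 0.00321), Ivd (0.67, 0.0173), Mccc2 (0.57, 0.0422) and Bckdhb (0.65, 0.0467), which are enzymes of this breakdown. Got1 and Got2 also passed there (adjusted p = 0.00433 and 0.023). Over all tested genes the median of this comparison was 0.00, and on 7 arrays the medians of the 3 lists were 1.41, 0.36 and 0.53. Of all tested genes 1.18% passed on 9 arrays and 3.64% on 7.

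**Figure D5:**
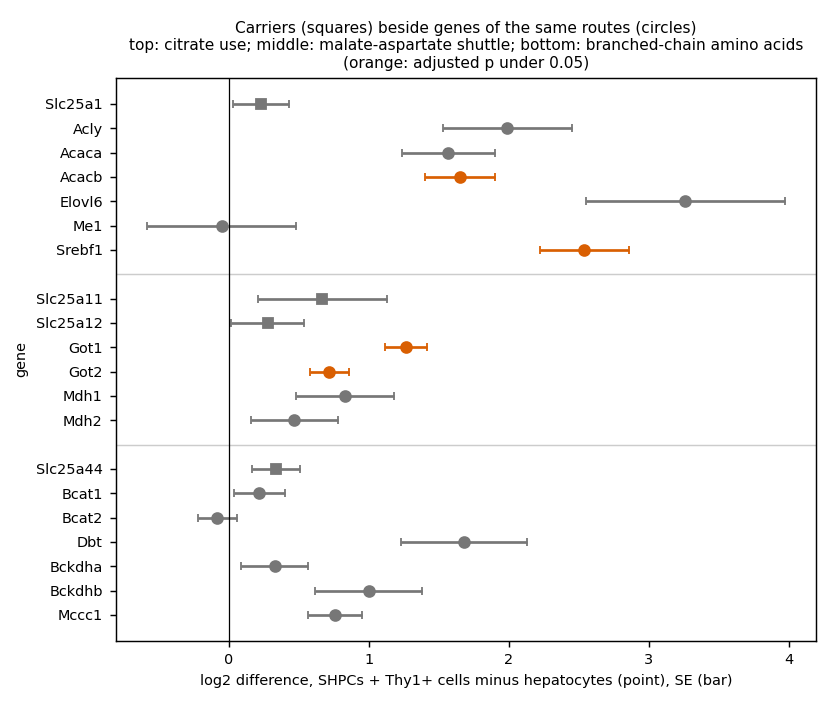
Log2 difference of SHPCs of transplanted livers from hepatocytes (point) with limma's SE (bar) on the horizontal axis for Slc25 carriers (squares) and genes of the same routes (circles), listed on the vertical axis for citrate use, the malate-aspartate shuttle and branched-chain amino acids. Srebf1 at 2.54, Acacb at 1.65, Got1 at 1.27 and Got2 at 0.72 passed (orange), and Slc25a1, Slc25a11, Slc25a12 and Slc25a44 did not.

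Other lists around the carriers held no gene that passed against hepatocytes on 9 arrays. Of 11 measured genes that make coenzyme A, or use it or thiamine, 9 were higher (median 0.43). The smallest p-values were those of Bckdhb, a subunit of the branched-chain ketoacid dehydrogenase (1.00 ± 0.38, adjusted p = 0.379), and the pantothenate kinase Pank3 (0.51 ± 0.21, adjusted p = 0.437). On 7 arrays the median was 0.23 and 3 passed, beside 3.64% of all tested genes. They were Bckdhb, Dlat of the pyruvate dehydrogenase complex (0.51, adjusted p = 0.0484) and, lower, the pantothenate kinase Pank1 (-0.77, adjusted p = 0.0233). Of 8 genes of iron-sulfur cluster and heme synthesis, 7 were higher (median 0.27, and 0.13 on 7 arrays), led by the iron-sulfur assembly protein Isca1 (0.63 ± 0.34, adjusted p = 0.585) and the heme enzyme Ppox (0.34 ± 0.23, adjusted p = 0.666). On 7 arrays Fech, the ferrochelatase, passed as lower (-0.46, adjusted p = 0.0491).

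Of 6 mitochondrial folate enzymes 4 were higher, with Shmt2, the mitochondrial serine hydroxymethyltransferase, at 1.15 ± 0.43 (adjusted p = 0.374) and Mthfd1l at -0.24 ± 0.17 (adjusted p = 0.672). On 7 arrays Shmt2 passed (0.82, adjusted p = 0.00853), as 3.64% of all tested genes did. Of 12 genes that import carriers through TIM22 and TOM70, 6 were higher and 6 lower (median 0.03), and on 7 arrays 3 were higher and 9 lower (median -0.13). The smallest p-values of that list were those of Timm29 (-0.54 ± 0.17, adjusted p = 0.238) and Timm10b (-0.53 ± 0.25, adjusted p = 0.503). Of 10 regulators of mitochondrial biogenesis, 5 were higher and 5 lower, with Ppargc1a at 1.29 ± 0.31 (adjusted p = 0.106) and Tfam at -0.34 ± 0.15 (adjusted p = 0.463). The outer membrane channels Vdac1, Vdac2 and Vdac3 were all higher without passing, at 0.52 ± 0.19 for Vdac2 (adjusted p = 0.367) and 0.34 ± 0.15 for Vdac1 (adjusted p = 0.473). Of the carrier-like proteins of the outer membrane, Mtch2 differed by 0.41 ± 0.32 (adjusted p = 0.708) and Mtch1 by 0.09 ± 0.23 (adjusted p = 0.913). Mpc1 of the pyruvate carrier differed by 0.26 ± 0.22 (adjusted p = 0.734) and its relative Mpc1l by -0.22 ± 0.29 (adjusted p = 0.826).

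Markers of other cell types were read on the same arrays. Of 10 Kupffer cell and macrophage markers, 9 were higher in transplanted SHPCs than in hepatocytes and 1 passed, Marco (0.80 ± 0.16, adjusted p = 0.0456, and 0.0612 to 0.203 with any 1 array other than SHPC array 2 left out). Their median was 0.24. On 7 arrays it was 0.04, with 5 higher and 5 lower, and Marco passed (0.79, adjusted p = 0.048). Against SHPCs without transplantation all 10 were higher on 9 arrays (median 0.56) and on 7 (median 0.24), and 0 passed on either. The summed intensity of the list was 1980 to 2660 in hepatocytes, 1430 to 2330 in SHPCs and 2670 to 3260 in transplanted SHPCs. Of 4 measured erythroid genes Ahsp was dim, and Tfrc, a transferrin receptor that many dividing cells also carry, passed (1.18 ± 0.23, adjusted p = 0.0426, and 0.0611 to 0.218 with SHPC array 3 or any 1 of the 6 arrays compared left out). Hba-a1 was lower (-0.40 ± 0.39) and Slc4a1 higher (0.14 ± 0.15), and neither passed. Tfrc was also higher in SHPCs without transplantation than in hepatocytes (0.88 ± 0.23, limma adjusted p = 0.525). Between the SHPC groups Tfrc differed by 0.30 ± 0.23. The erythroid sum was 161 to 231, 216 to 361 and 295 to 365 in the same order. For 6 cholangiocyte markers the sum was 116 to 134, 136 to 146 and 147 to 171, for 5 sinusoidal endothelial markers 637 to 927, 513 to 798 and 820 to 966, for 9 stellate cell and fibroblast markers 740 to 1120, 614 to 945 and 967 to 1170, and for 7 T and NK cell markers, of which Cd3d was dim, 114 to 124, 126 to 144 and 131 to 133. None of the last 4 lists held a gene that passed on 9 arrays, where 1.18% of all tested genes passed. On 7 arrays the cholangiocyte markers Epcam (1.08, adjusted p = 0.023) and Krt19 (0.63, adjusted p = 0.0357) passed as higher, after 0.89 ± 0.28 (adjusted p = 0.257) and 0.47 ± 0.17 (adjusted p = 0.324) on 9. Of all tested genes 3.64% passed on 7 arrays. The 6 cholangiocyte markers were split into 4 higher and 2 lower on 9 arrays and on 7, with Krt7 at -0.28 and Sox9 at -0.20 on 7. SHPCs without transplantation also lay above hepatocytes on 7 arrays for Epcam (0.65) and Krt19 (0.57), without passing. Against SHPCs without transplantation, 9 of 9 stellate cell and fibroblast markers were higher on 9 arrays, and 8 were higher and 1 lower on 7. Of 6 tested T and NK cell markers 1 was higher and 5 lower on 9 arrays, and 2 were higher and 4 lower on 7. In both lists 0 passed. The part of the cell type markers in the values of Slc25a23 and Slc25a30 was not tested.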

How the data were processed

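RNA of microdissected rat liver was hybridised to whole-transcript Affymetrix arrays, 3 for each of 3 groups, which were set by the cell type label. The deposited values are probe set intensities made by the authors with RMA, per the submitters' processing notes. The sources used here do not give RMA's version or settings, or a genome build. They lie on the linear scale, and log2 was taken here. Genes were named from the platform annotation, and all 41 carriers matched RefSeq (GRCr8) by Entrez ID with 0 symbols changed. Testing required that 3 or more of the 9 arrays exceed their own 25th percentile. One limma fit (version 3.58.1, R 4.3.3) of 3 group means over 9 arrays (6 residual degrees of freedom, eBayes) gave 3 comparisons, with Benjamini-Hochberg adjustment over 15793 genes at 0.05, and was tested on simulated data. Genes are not ranked by level, since probes differ, and a mean log2 intensity of 6 serves only to split carriers for the check of array 2.

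Values on every array are given for carriers past the threshold, for the 8 with the smallest p in each comparison and for a fixed set; of the pathway lists, genes past the threshold or otherwise the 2 with the smallest p are named, as are genes past it on 7 arrays, added after their values were seen. The carriers and lists were chosen with earlier results of these data known. Deviations of same-numbered arrays of SHPCs and hepatocytes correlated at 0.526, 0.705 and 0.341. Deviations were taken from the group mean, so the shift of array 2 in both groups can raise all 3 correlations. They therefore cannot show pairing, the labels give none, and the array number as a block is an alternative only. In the other comparisons same-numbered arrays did not correlate in this way. The alternatives covered the filter, scaling, samples, weights, variance prior, probe set choice, blocks and each array left out; 3 arrays per group limit the precision. The planned comparison of protein sequences was not run.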

Additional observations from a re-analysis of the deposited data

How the results depend on the processing

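All alternatives were run on each comparison, 21 on 2 of them and 22 on SHPCs against hepatocytes, and none turned the direction of a carrier that passed. Counts of all genes past the threshold moved most. For transplanted SHPCs against SHPCs (1 gene), they were 0 with median centring, with the 2 groups alone and with all probe sets, 17 with quantile normalization, 40 with cyclic loess, 259 with array weights, 64 and 10 with a fixed and a random replicate block, 23 without both arrays that stood apart, and 0 to 24 with 1 array left out. Carriers passing (0) became 1 with cyclic loess, the fixed block or both arrays out, and 4 with array weights. For SHPCs against hepatocytes (10 genes) the same order gave 0, 0 and 0, then 17, 34, 375, 35 and 29, and 48, with 76 for the block in the 2 groups alone, which was added after seeing the data, and 0 to 53; carriers (0) became 1 with array weights and stayed 0 with 1 array left out. For transplanted SHPCs against hepatocytes (186 genes, 136 higher) the counts were 47 with median centring, 304 with the 2 groups alone, 56 with all probe sets, 328 with quantile normalization, 440 with cyclic loess, 2685 with array weights, 367 and 305 with the blocks, 575 without both arrays and 31 to 472 with 1 left out. Carriers (2) became 0 with median centring and all probe sets, 8 with array weights, 4 without both arrays and 0 to 3 with 1 left out. Fewer samples enter each fit with an array left out; why the other settings moved the counts was not tested. Deviations of the transplanted arrays correlated with those of same-numbered arrays at -0.0936 to 0.00234 for SHPCs and -0.0904 to -0.069 for hepatocytes. Counted over all 3 groups, 5 of 9 arrays correlated best with an array of their own number, a count that is not particular to the transplanted arrays. The carriers' medians with 1 array left out were 0.00 to 0.15, -0.11 to 0.11 and 0.00 to 0.13 in the 3 comparisons. Probe sets near the 25th percentile, such as that of Slc25a52, limit what can be read from dim carriers.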
